A study of Mus musculus with 6 samples.

Results

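Genes for the protein import machinery, the matrix chaperones and proteases, the fusion and fission factors and the mitophagy proteins of mitochondria were examined in kaempferol-treated C2C12 myotubes. A list of 46 gene names defined the set, and all 46 were found among the 54924 genes of the deposited count table. C2C12 is a mouse skeletal muscle myoblast line that fuses into multinucleated myotubes once serum is withdrawn, and kaempferol is a flavonol of plants. Poly(A) RNA was sequenced from 3 control libraries and 3 kaempferol libraries, the latter exposed to 25 μM kaempferol for 24 h, and both groups came from cells differentiated for 6 days. The study asked how kaempferol acts on muscle cell function. All libraries come from the same immortal line, with no genetic change named in the labels. The labels name the control libraries only as without kaempferol, while the treatment protocol, given in the same words for both groups, ends with kaempferol for the controls too, so that the controls are untreated by their titles and treatment tags and not by that protocol. The titles of the kaempferol libraries spell the line C2C13, and a treatment tag shared by every library reads dedifferentiation, so the titles were followed. No label says that the libraries came from separate cultures, so the p-values speak only of the spread among these 6 libraries, and that spread may be technical. Control replicate 3 stood apart from the other controls on the second principal component of all tested genes (-21.8 against 11.7 and 9.58), and the counts of called genes in the set and in the list of other mitochondrial genes are also given without it.

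Most mitochondrial proteins are made in the cytosol and imported. The TOM complex of the outer membrane receives them, small TIM chaperones carry them across the intermembrane space, and the TIM23 and TIM22 complexes pass them into or through the inner membrane, after which matrix chaperones fold them and proteases remove what fails. Mitochondria also fuse and divide, and damaged ones are marked for engulfment by autophagy, which is called mitophagy. In skeletal muscle these processes are known for keeping the large mitochondrial network working and for remodelling it with exercise and disuse.

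Kaempferol left most of this machinery close to the control level, with a few small differences in receptors and mitophagy genes. A gene was called at an adjusted p under 0.05 in edgeR's quasi-likelihood test, the adjustment (Benjamini-Hochberg) running over the 14558 genes tested. Of the 45 members with enough counts to be tested, 5 were upregulated (Pink1, Tomm20, Tomm70a, Fundc1 and Tomm5), 1 was downregulated (Timm23) and 39 were not called. Over all tested genes 24% were called, 11.3% upregulated and 12.6% downregulated. Among the 9153 tested genes with a mean level at least that of the lowest tested member, 31.2% were called. Without control replicate 3, 4 members were upregulated and 1 was downregulated, Fundc1 losing its call. At an unadjusted p under 0.05, 7 members were higher and 2 were lower.

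The 3 kaempferol libraries all lay above the 3 control libraries for 7 members and all below them for 9, against 18.6% and 19.6% of all tested genes. The median log2 fold change of the tested members was 0.001, and that of all tested genes was 0. The median size of the log2 fold change, regardless of sign, was 0.066 for the members and 0.152 for all tested genes. It was 0.117 for the genes at or above the level of the lowest tested member, a floor without matching of levels. The members were also measured somewhat more tightly, with a median half-width of the 95% interval of 0.123 on the log2 scale against 0.175 for all tested genes and 0.136 for those at or above that floor. For 32 of the 39 uncalled members the 95% interval stayed within a 1.2-fold change in either direction, and for all 39 it stayed within 1.5-fold. Summed over the 46 members, expression was 5245, 5270 and 5349 CPM (read counts scaled to a common library size) in the control libraries and 5450, 5289 and 5212 CPM in the kaempferol libraries, and the groups overlapped.

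**Figure D1:**
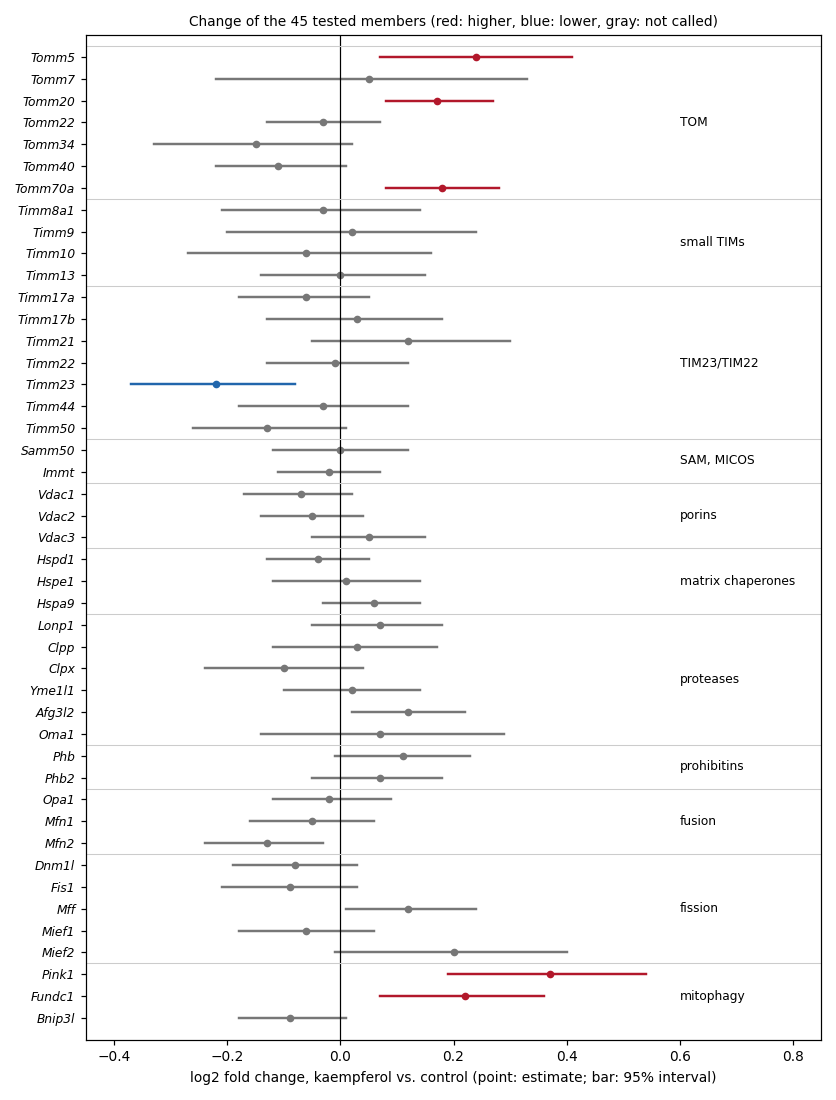
The log2 fold change of each of the 45 tested members, kaempferol vs. control, is plotted as a point with its 95% interval as a bar, grouped by role, with called members in red (higher) or blue (lower) and the others in gray. Most points lie close to 0, the 5 red points lie between 0.17 and 0.37, and the single blue point, Timm23, lies at -0.22.

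The libraries held 16575790 to 18625272 counts, and a tested member had a median of 1231 to 1442 counts in a library, so counting error is small for most members. The labelled cell type was checked against marker genes. Their calls stand beside 24% called over all tested genes, 11.3% upregulated and 12.6% downregulated. Of 20 myotube markers 17 had enough counts to be tested, 2 rose (Myog and Acta1, log2 fold changes of 0.29 and 0.26, edgeR adjusted p = 0.0143 and 0.00703) and 3 fell (Myh4, Mymx and Des, log2 fold changes of -1.5, -0.52 and -0.15, edgeR adjusted p = 0.00665, 0.0216 and 0.0224). Their summed level overlapped between the groups (1082 to 1209 CPM in control, 1079 to 1187 CPM in kaempferol), while Tnnc2, a fast-fibre troponin, had 0 counts in every library. Des made up the largest part of that sum, with means of 652 CPM in control and 587 CPM in kaempferol, and Acta1 came next at 194 and 231 CPM. Of the other myotube markers, Myh3 and Mylpf were at 79.3 and 77.9 CPM in control and Myog was at 33.1 CPM. Others were low, such as Ckm at 4.66 CPM and Myh4 at 1.67 CPM in control. All 8 markers of dividing cells fell, from a summed level of 2411 to 2555 CPM in control to 1833 to 1930 CPM in kaempferol, and the 9 myoblast and reserve cell markers, 3 of them lower, summed to 471.2 to 492.6 CPM against 437.7 to 453.3 CPM. The cultures thus held dividing cells in both groups, and in such bulk libraries fewer cells of a type and less RNA per cell cannot be told apart. The part of these markers in the results on the mitochondrial genes was not tested. Markers of other cell types were mostly low or absent, with Runx2 the clear exception. In every library 3 of 6 adipocyte markers, 1 of 5 osteoblast markers and 1 of 5 macrophage markers had 0 counts, and none of the 4 endothelial markers was at 0 throughout. The summed levels of these lists reached at most 10.85, 89.79, 4.412 and 2.396 CPM, with the groups overlapping. The osteoblast sum was almost all Runx2, with means of 80.2 CPM in control and 71.7 CPM in kaempferol. In control this was close to the myotube marker Myh3 at 79.3 CPM. The genes of the mitochondrial genome took 1.56% to 1.72% of the counts in control and 1.93% to 2.09% in kaempferol.

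The members differ widely in abundance, and levels of different genes are compared here as CPM per kilobase of gene length. Hspd1, which encodes the chaperonin HSP60, was the most abundant at 252 CPM per kilobase in control and 245 in kaempferol, followed in control by Hspa9 at 169, Hspe1 at 166 and Vdac1 at 119. At the other end stood Mief2 at 4.58 CPM per kilobase in control, Timm9 at 5.25 and Oma1 at 6.21. Among the called members, Tomm5 and Timm23 were in the upper range (44.4 and 41.6 CPM per kilobase in control) and Pink1 in the lower range, at 12.8 in control and 16.6 in kaempferol.

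**Figure D2:**
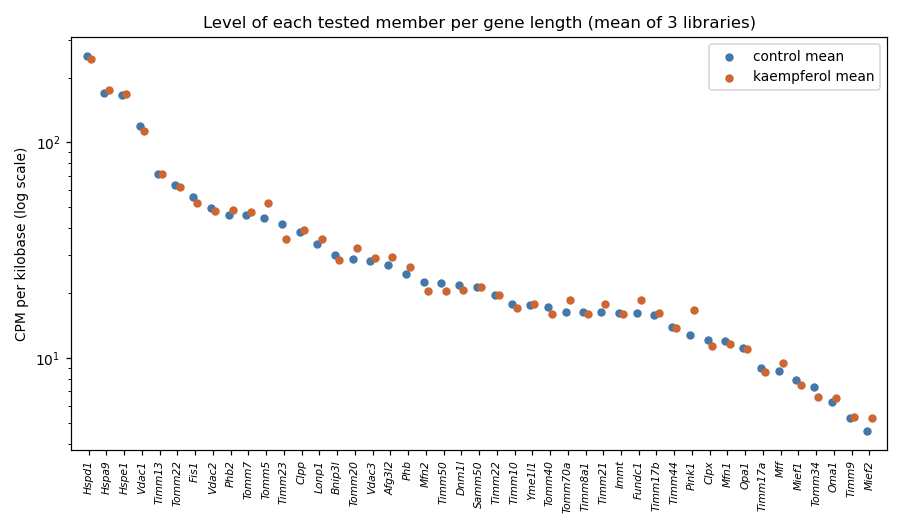
The mean level of each tested member over the 3 libraries of a group is plotted as CPM per kilobase on a log axis, blue for control and orange for kaempferol, in the order of the control level. The levels fall from 252 CPM per kilobase for Hspd1 to 4.58 for Mief2 in control, and at each member the points of both groups lie close together compared with that range.

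The outer membrane gate and its cytosolic partner, with 7 tested members, held 3 of the 5 upregulated members. Over all tested genes 11.3% were upregulated, and among genes at or above the level of the lowest tested member 31.2% were called in either direction. No test of the role as a group was made. Tomm20 encodes the receptor that binds the presequences of matrix proteins, and Tomm70a encodes the receptor that takes membrane carriers and docks their cytosolic chaperones. Their upstream regions are printed because both receptors rose together, and because the Tomm20 region holds a match to the core of the antioxidant response element, the site to which the NRF2 factor binds. In the promoter search described below, this core was in 4.17% of member windows and 12.4% of all windows. Its part in the rise of Tomm20 was not tested. The bases are from RefSeq (build GRCm38.p6), read 5′ to 3′ on the gene's strand, and cover chr8:126945922-126946071 on the minus strand for Tomm20 and chr16:57121553-57121702 on the plus strand for Tomm70a. Capitals mark the match to TGACNNNGC, where N is any base.
Tomm20: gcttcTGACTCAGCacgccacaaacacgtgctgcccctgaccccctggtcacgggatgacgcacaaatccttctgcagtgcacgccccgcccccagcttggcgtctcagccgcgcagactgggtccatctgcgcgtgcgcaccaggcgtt
Tomm70a: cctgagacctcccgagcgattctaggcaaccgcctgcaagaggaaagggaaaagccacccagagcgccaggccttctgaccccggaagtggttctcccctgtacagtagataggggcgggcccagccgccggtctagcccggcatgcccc

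Tomm20 (chr8:126930667-126945844, minus strand) was at 140, 141 and 142 CPM in control and 163, 157 and 158 CPM in kaempferol. Its control libraries were nearly equal and every kaempferol library lay above them. The means were 141 ± 0.597 and 159 ± 3.36 CPM (SD, n = 3 each), a log2 fold change of 0.17 with a standard error of 0.0439 (edgeR adjusted p = 0.0074), and the call held in all 15 alternative fits tried. Tomm70a (chr16:57121703-57156705, plus strand) was at 159, 167 and 156 CPM in control and 180, 178 and 189 CPM in kaempferol. Again the groups did not overlap, with the lowest kaempferol library above the highest control library. Its means were 161 ± 5.4 and 182 ± 5.67 CPM (SD, n = 3 each), a log2 fold change of 0.18 with a standard error of 0.0466 (edgeR adjusted p = 0.00804), called in all 14 alternative fits. Neither Tomm20 nor Tomm70a reached a fold change of 1.2.

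Tomm5, a small subunit that sits beside the import channel (chr4:45105208-45108114, minus strand), was at 37.6, 34 and 44.1 CPM in control and 47.3, 45 and 44.1 CPM in kaempferol. The third library of each group had the same value to the digits given, so the groups were barely apart. The log2 fold change was 0.24 with a standard error of 0.0821 (edgeR adjusted p = 0.0418), from 38.6 ± 5.12 to 45.5 ± 1.63 CPM (SD, n = 3 each). The call was held in 9 of 15 alternative fits and was lost with DESeq2 (adjusted p = 0.0622), and without control replicate 2 the log2 fold change was 0.16 and the edgeR adjusted p = 0.183. The call was also lost in edgeR without control replicate 1, kaempferol replicate 1 or kaempferol replicate 2 (adjusted p = 0.114, 0.131 and 0.0799).

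The other subunits of the gate were not called. Tomm40, the channel itself, was at 75.2, 80 and 78 CPM in control and 75, 72.2 and 69.5 CPM in kaempferol, a log2 fold change of -0.11 (edgeR adjusted p = 0.162), although each kaempferol library lay below each control library. Tomm22, the central receptor that holds the complex together, overlapped between groups at 99.8 to 107 CPM and 99.9 to 104 CPM. Tomm34, a cytosolic cochaperone of import, had a log2 fold change of -0.15 (edgeR adjusted p = 0.189). Tomm7, which tunes the assembly of the complex, had the widest spread of the group at 42.4 to 60.1 CPM in control and 40.1 to 63.8 CPM in kaempferol. Tomm6 was not tested, since no library held more than 3 counts of it. Its exon bases are shared to 76% with the overlapping gene Gm21981, and how shared reads were counted is not given in the sources used here.

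The levels of these subunits were also set against each other within each library. The count of Tomm20 relative to that of Tomm22 was 1.41, 1.31 and 1.34 in control and 1.56, 1.57 and 1.55 in kaempferol. Tomm70a relative to Tomm40 was 2.11, 2.08 and 2 in control and 2.4, 2.46 and 2.71 in kaempferol. Both ratios of counts, which are not corrected for gene length, were higher in every kaempferol library than in any control library. The summed level of the TOM genes was 585.5, 594.2 and 609.5 CPM in control and 654.7, 629.2 and 621.3 CPM in kaempferol, 6.49% higher on average and without overlap. These ratios and sums were taken after the single genes were seen and are given without a test.

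**Figure D3:**
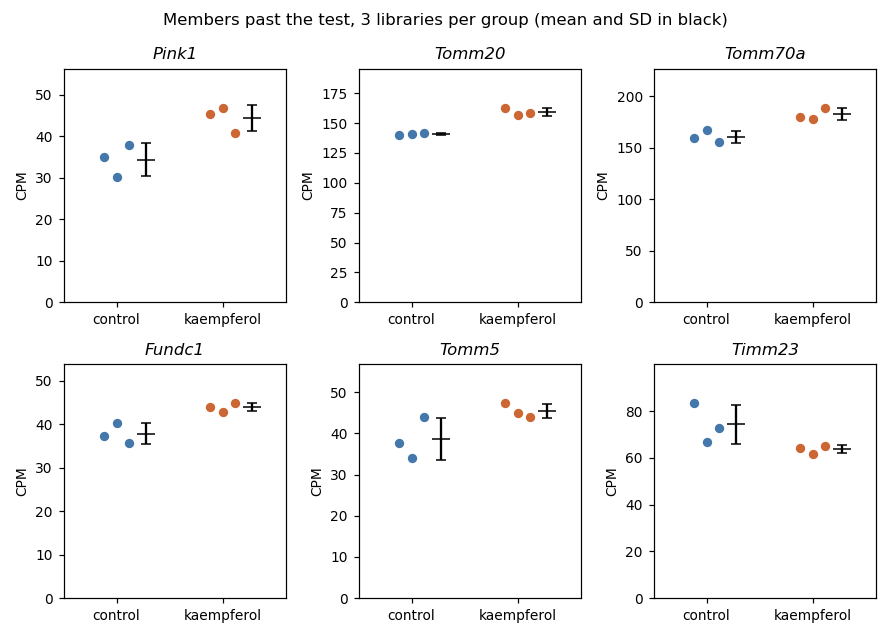
CPM of the 6 called members is plotted for each library from 0 upwards, blue for control and orange for kaempferol, with the mean and SD of the 3 libraries in black. The kaempferol points of Pink1, Tomm20, Tomm70a and Fundc1 lie above all control points, those of Timm23 lie below them, and in Tomm5 the highest control point meets the lowest kaempferol point at 44.1 CPM.

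The next stations of the import route gave 1 call, a fall, among 11 members. This stands beside 24% called over all tested genes and 31.2% among those at or above the level of the lowest tested member. Timm23 encodes a core subunit of the inner membrane translocase for presequence proteins (chr14:32180162-32201898, minus strand). It was at 83.3, 66.8 and 72.9 CPM in control and 64.3, 61.7 and 65 CPM in kaempferol. The kaempferol libraries were close to each other and below all control libraries, among which the first stood highest. The means were 74.3 ± 8.35 and 63.7 ± 1.69 CPM (SD, n = 3 each), and expression fell by 0.22 on the log2 scale with a standard error of 0.0688 (edgeR adjusted p = 0.025). Without control replicate 1 the log2 fold change was -0.13 (edgeR adjusted p = 0.219), and the call was also lost without kaempferol replicate 1 or 2 (edgeR adjusted p = 0.0544 and 0.0925). Timm23 has 5 near-identical gene copies elsewhere in the genome, none above 22 counts in any library, and its call was kept after their counts were added.

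Its partners were not called. Timm17a and Timm17b, which build the same translocase, had log2 fold changes of -0.06 and 0.03, and Timm50, the receptor facing the intermembrane space, had -0.13 (edgeR adjusted p = 0.189). Timm21, which links the translocase to TOM, had a log2 fold change of 0.12, and Timm44, the anchor of the import motor, had -0.03. Timm22, the channel for membrane carriers, had a log2 fold change of -0.01 with a 95% interval of -0.13 to 0.12. The count of Timm23 relative to Timm17a was 1.19, 0.94 and 1.02 in control and 0.931, 0.893 and 1 in kaempferol, and the groups overlapped.

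The small TIM chaperones Timm8a1, Timm9, Timm10 and Timm13, which escort hydrophobic proteins between the membranes, had log2 fold changes from -0.06 to 0.02, and all 4 overlapped between groups. In the small TIMs, Samm50 and Immt, the porins, the matrix chaperones and the prohibitins, no member was called by edgeR or DESeq2 and none had an unadjusted p under 0.05. Samm50, which inserts barrel-shaped proteins into the outer membrane, and Immt, the core of the MICOS complex that shapes the cristae, had log2 fold changes of 0 and -0.02. The porins, which are the metabolite channels of the outer membrane, were abundant and not called. Vdac1 was at 310 to 315 CPM in control and 285 to 308 CPM in kaempferol, a log2 fold change of -0.07 with a 95% interval of -0.17 to 0.02, and Vdac2 and Vdac3 had -0.05 and 0.05. Kaempferol values of Vdac1 and Vdac2 lay below the control values in every library, without a call. Vdac3 has a pseudogene copy, Vdac3-ps1, that drew 407 to 488 counts per library, so reads may have been split between the pair.

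The matrix chaperones showed no difference that passed the test. HSP60 and HSP10, encoded by Hspd1 and Hspe1, form the folding chamber of the matrix, and their genes stand head to head on chromosome 1 and share 112 exon bases. Hspd1 was at 660, 680 and 661 CPM in control and 652, 628 and 662 CPM in kaempferol, and the groups overlapped (log2 fold change -0.04, 95% interval -0.13 to 0.05, edgeR adjusted p = 0.511). Hspe1 was at 234, 234 and 264 CPM in control and 269, 247 and 223 CPM in kaempferol, with overlap in both directions (log2 fold change 0.01, 95% interval -0.12 to 0.14, edgeR adjusted p = 0.916). The count of Hspd1 relative to Hspe1 overlapped as well, at 2.5 to 2.9 in control and 2.42 to 2.97 in kaempferol. Hspa9 encodes mortalin, the HSP70 of the import motor. It was at 654, 679 and 662 CPM in control and 707, 679 and 688 CPM in kaempferol, with control replicate 2 level with kaempferol replicate 2 (log2 fold change 0.06, 95% interval -0.03 to 0.14, edgeR adjusted p = 0.364). These are the most abundant members, and their intervals leave room only for changes well under 1.2-fold. Hspd1 also has a pseudogene, Hspd1-ps3, with 161 to 416 counts per library.

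The matrix and inner membrane proteases were not called in the main edgeR test or by DESeq2, and 1 of the 6 had an unadjusted p under 0.05. Lonp1, which degrades damaged matrix proteins, was at 139 to 158 CPM in control and 148 to 160 CPM in kaempferol (log2 fold change 0.07, 95% interval -0.05 to 0.18, edgeR adjusted p = 0.409). Clpp and Clpx, the chamber and the unfoldase of another matrix protease, had log2 fold changes of 0.03 and -0.10, and Yme1l1 and Oma1, inner membrane proteases that cut OPA1, had 0.02 and 0.07. Afg3l2, a subunit of the matrix-facing AAA protease, was at 84.5, 81.4 and 85 CPM in control and 91.6, 91.6 and 89.7 CPM in kaempferol. Its groups did not overlap, yet its log2 fold change of 0.12 had an edgeR adjusted p = 0.0751, and it passed only with upper-quartile scaling among 14 alternatives (edgeR adjusted p = 0.0309). Summed over the 6 proteases, the level was 468.3 to 479.5 CPM in control and 482.1 to 498.4 CPM in kaempferol, 3.16% higher on average. The prohibitins Phb and Phb2, which form a ring scaffold in the inner membrane, had log2 fold changes of 0.11 and 0.07 and overlapped, and the Phb reads may be split with its pseudogene Gm7666, which drew 700 to 812 counts per library.

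Promoter sequence was searched for 4 motifs in windows of 250 bases before to 50 bases after each RefSeq start site, on both strands, and 39 of the 46 members had at least 1 window, 48 windows in all. The core of the antioxidant response element, TGACNNNGC, was found in 2 member windows, those of Lonp1 and Tomm20, or 4.17%, against 12.4% of all 32851 windows. The core of the site of NRF1, a factor known for driving nuclear genes of mitochondria, GCATGCG, was found in 5 member windows, or 10.4%, against 3.58% of all windows. These were the windows of Clpx, Timm13, Opa1, Hspe1 and Hspd1, and the last 2 share a single site between their head-to-head genes. The CCAAT box was in 37.5% of member windows and 37.4% of all windows, and the composite ATF4/CHOP motif TGATGNAAT was in no member window and in 0.965% of all windows. The matches are shown with the flanking bases on the gene's strand, with the motif in capitals, because they include both called and uncalled members. They lie at chr17:56626987-56627015 (Lonp1, minus strand), chr8:126946048-126946076 (Tomm20, minus strand), chr1:55087947-55087973 (Hspe1, plus strand), chr9:65294163-65294189 (Clpx, plus strand), chr10:80901146-80901172 (Timm13, minus strand) and chr16:29579266-29579292 (Opa1, plus strand), and in Clpx, Timm13 and Opa1 the motif reads on both strands with an overlap.
Lonp1: agtctccctcTGACCACGCccactcactc
Tomm20: tagaggcttcTGACTCAGCacgccacaaa
Hspe1: cctgcaatctGCATGCGgcgcgcgcgg
Clpx: ttagtctccaCGCATGCGcagcgtaaa
Timm13: ttatattgtaCGCATGCGcagcgggga
Opa1: tggctccccgCGCATGCGcatgtcatc

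Of the genes shown with these matches only Tomm20 was called, while Lonp1, Hspe1, Clpx, Timm13 and Opa1 had log2 fold changes from -0.10 to 0.07. A match to such short letters describes the sequence and is not a measured binding site. Lonp1 has a further TGACNNNGC match just after its start site, which is not shown.

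The fusion genes gave no call in the main edgeR test or DESeq2, and 1 of the 3, Mfn2, had an unadjusted p under 0.05. Mitofusins 1 and 2, encoded by Mfn1 and Mfn2, tether and fuse outer membranes, and Mfn2 also links mitochondria to the endoplasmic reticulum. Mfn2 was at 117, 115 and 118 CPM in control and 112, 99.6 and 107 CPM in kaempferol. All kaempferol libraries lay below the control libraries, the second by the most. The means were 117 ± 1.76 and 106 ± 6.22 CPM (SD, n = 3 each), with a log2 fold change of -0.13 and a 95% interval of -0.24 to -0.03 (edgeR adjusted p = 0.0576). It passed in 2 of 14 alternatives, with gene length offsets (edgeR adjusted p = 0.0384) and without kaempferol replicate 1 (log2 fold change -0.17, edgeR adjusted p = 0.0313).

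Mfn1 was at 73.8, 73.7 and 72.4 CPM in control and 71.2, 73.7 and 67.8 CPM in kaempferol, and the groups overlapped (log2 fold change -0.05, 95% interval -0.16 to 0.06, edgeR adjusted p = 0.554). Opa1, the GTPase that fuses inner membranes, was at 89, 87.9 and 85.4 CPM in control and 83.3, 86.1 and 89.7 CPM in kaempferol, with no separation (log2 fold change -0.02, 95% interval -0.12 to 0.09, edgeR adjusted p = 0.844). The sum of the 3 fusion genes was 279.9, 276.4 and 276 CPM in control and 266.4, 259.4 and 264.7 CPM in kaempferol. It was lower in every kaempferol library, with a difference of -5.02% between the means, and Mfn2 made up most of that difference.

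The fission genes were not called in the main edgeR test or by DESeq2, and 1 of the 5, Mff, had an unadjusted p under 0.05. Dnm1l encodes DRP1, the GTPase that constricts mitochondria, and was at 107 to 122 CPM in control and 105 to 109 CPM in kaempferol (log2 fold change -0.08, 95% interval -0.19 to 0.03). Of its receptors on the outer membrane, Mff had a log2 fold change of 0.12 with an unadjusted p of 0.0385 and an edgeR adjusted p = 0.118. Mff passed only with gene length offsets among 14 alternative fits (log2 fold change 0.16, edgeR adjusted p = 0.0239). Fis1 and Mief1 had log2 fold changes of -0.09 and -0.06. Mief2, the least abundant member tested per length, was at 12.7, 11.7 and 13 CPM in control and 13.9, 14 and 14.8 CPM in kaempferol. Its groups did not overlap, but with so low a level the log2 fold change of 0.20 had a 95% interval of -0.01 to 0.40 (edgeR adjusted p = 0.165). The count of Opa1 relative to Dnm1l, a fusion gene over a fission gene, was 0.722 to 0.796 in control and 0.788 to 0.824 in kaempferol, and the groups overlapped.

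**Figure D4:**
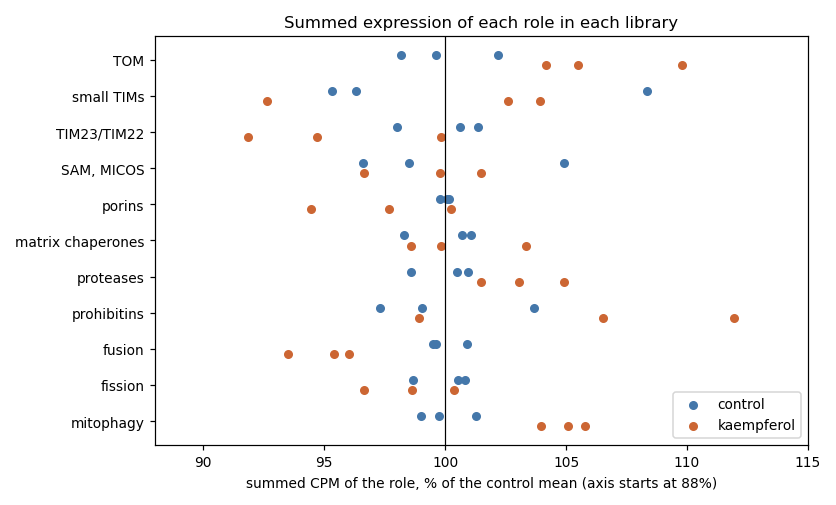
The summed CPM of the members of each role is plotted for each library as a percentage of the control mean of that role, blue for control and orange for kaempferol, on an axis that starts at 88%. Kaempferol points lie above all control points for TOM, proteases and mitophagy and below them for fusion, and the other 7 roles overlap.

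Mitophagy genes held the largest change of the set. Pink1 encodes the kinase that accumulates on damaged mitochondria and phosphorylates ubiquitin to recruit the ligase parkin. The 150 bases upstream of its annotated gene, chr4:138326308-138326457 on the minus strand (RefSeq, GRCm38.p6), are printed as those of the most changed member, and none of the 4 motifs was found in its window.
Pink1: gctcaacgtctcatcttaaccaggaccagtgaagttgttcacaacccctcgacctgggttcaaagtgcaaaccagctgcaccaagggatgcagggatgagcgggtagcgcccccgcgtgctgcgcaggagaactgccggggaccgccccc

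Pink1 (chr4:138313409-138326307, minus strand) was at 35, 30.2 and 37.9 CPM in control and 45.4, 46.9 and 40.8 CPM in kaempferol. Each kaempferol library lay above each control library, with the third library of each group nearest to the other group. The means were 34.3 ± 3.9 and 44.4 ± 3.19 CPM (SD, n = 3 each), a rise of 29.2%. The log2 fold change was 0.37 with a standard error of 0.0831 and a 95% interval of 0.19 to 0.54 (edgeR adjusted p = 0.00334). The call held in all 14 alternative fits, with log2 fold changes from 0.29 to 0.44 and adjusted p-values from 2.7e-05 to 0.0203, and Pink1 was the single called member whose estimate reached a fold change of 1.2.

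Fundc1 and Bnip3l encode outer membrane receptors that bind the autophagosome protein LC3 directly, without PINK1. Fundc1 (chrX:17556564-17572325, minus strand) was at 37.4, 40.4 and 35.6 CPM in control and 44, 42.9 and 44.8 CPM in kaempferol. The kaempferol libraries were close together and all above control. The means were 37.8 ± 2.45 and 43.9 ± 0.967 CPM (SD, n = 3 each), a log2 fold change of 0.22 with a standard error of 0.0681 (edgeR adjusted p = 0.0283). The call was held in 7 of 14 alternative fits and was lost with DESeq2 (adjusted p = 0.0587), with gene length offsets (edgeR adjusted p = 0.0553) and, in edgeR, without control replicate 1 or 3 or kaempferol replicate 1 or 3 (adjusted p = 0.0836, 0.106, 0.0702 and 0.0663).

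Bnip3l, also called NIX, was at 118, 116 and 114 CPM in control and 110, 108 and 110 CPM in kaempferol. Every kaempferol library was lower, by little, and the log2 fold change of -0.09 was not called (95% interval -0.18 to 0.01, edgeR adjusted p = 0.173). Its pseudogene Bnip3l-ps drew 156 to 193 counts per library. The count of Pink1 relative to Bnip3l was 0.295, 0.26 and 0.331 in control and 0.413, 0.434 and 0.37 in kaempferol. Its separation follows from the values of the single genes, and the ratio is given without a test. The sum of the 3 mitophagy members was 186.4 to 190.7 CPM in control and 195.8 to 199.2 CPM in kaempferol, 4.96% higher on average.

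Other genes of the same processes, the companion genes, were read from a list of 95 genes, 90 of them tested, of which 11 were upregulated, 6 were downregulated and 73 were not called, beside 11.3% upregulated and 12.6% downregulated over all tested genes. Without control replicate 3, 14 were upregulated and 4 were downregulated. Of 21 tested genes of the import machinery outside the set, such as those for the presequence motor and the disulfide relay, none was called by edgeR or by DESeq2 and none had an unadjusted p under 0.05, and their log2 fold changes ran from -0.18 to 0.14. The list of 19 other tested mitophagy genes gave 3 rises and 3 falls, near the 31.2% called among genes at or above the level of the lowest tested member. Over all tested genes 24% were called. The gene for parkin itself was at 1, 0 and 0 counts in control and 3, 2 and 1 counts in kaempferol, too low to test or to give a fold change.

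Sqstm1 encodes p62, an autophagy receptor that binds ubiquitin on mitochondria. It was at 516, 509 and 558 CPM in control and 844, 866 and 794 CPM in kaempferol, with the groups far apart (log2 fold change 0.66, SE 0.0479, edgeR adjusted p = 1.34e-08). Bnip3, the closest relative of Bnip3l and a hypoxia-responsive mitophagy receptor, was at 38.5, 35.9 and 44 CPM in control and 24.5, 27.1 and 26.3 CPM in kaempferol. All its kaempferol libraries were lower, and it fell by 0.60 on the log2 scale (SE 0.082, edgeR adjusted p = 3.12e-05). The count of Bnip3 relative to Bnip3l was 0.31 to 0.385 in control and 0.223 to 0.25 in kaempferol, without overlap. This ratio too restates the single genes and is given without a test.

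Nipsnap1, whose protein marks mitochondria for autophagy receptors, rose (log2 fold change 0.36, edgeR adjusted p = 0.00729), as did Calcoco1, an autophagy receptor (0.33, edgeR adjusted p = 0.000445). Calcoco1 is counted among the 3 rises of the mitophagy list, and whether it acts on mitochondria was not examined here. Bcl2l13, a further mitophagy receptor, and Usp15, a deubiquitinase that opposes parkin, fell by 0.21 and 0.18 on the log2 scale (edgeR adjusted p = 0.0123 and 0.0261). Parl encodes the inner membrane protease that cuts imported PINK1. It was at 42.5, 40.5 and 43.3 CPM in control and 54.8, 49.6 and 44.4 CPM in kaempferol, above control in each library but with a wide spread (log2 fold change 0.24, edgeR adjusted p = 0.0288).

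**Figure D5:**
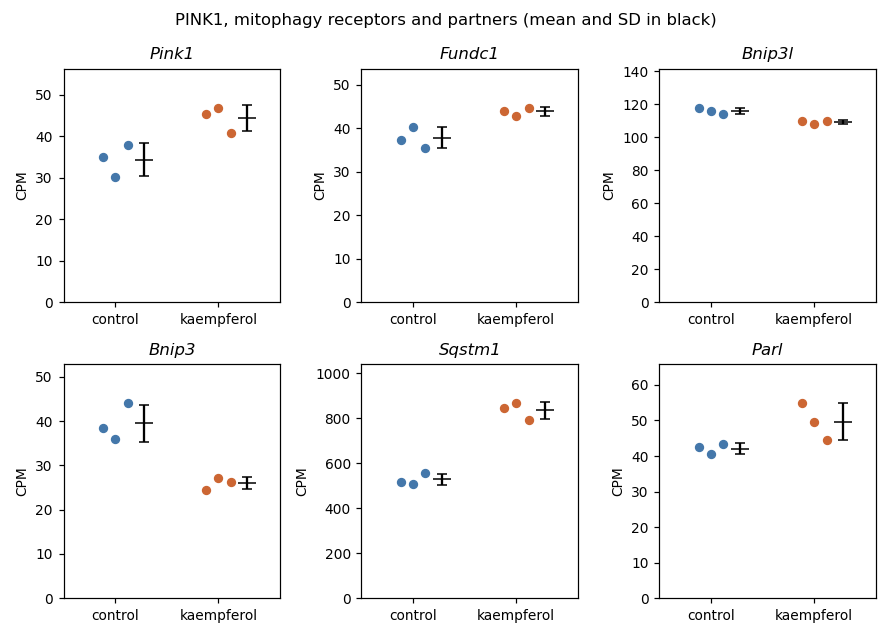
CPM in each library is plotted from 0 upwards for Pink1, Fundc1, Bnip3l, Bnip3, Sqstm1 and Parl, blue for control and orange for kaempferol, with the mean and SD of the 3 libraries in black. Kaempferol points lie above control for Pink1, Fundc1, Sqstm1 and Parl and below control for Bnip3 and, without a call, for Bnip3l, and the scale reaches 866 CPM for Sqstm1 and 46.9 CPM for Pink1.

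Among the chaperones and proteases outside the set, Hscb, a cochaperone that hands over iron-sulfur clusters, rose from 7.86 ± 0.97 to 11.8 ± 0.248 CPM (SD, n = 3 each, log2 fold change 0.58, edgeR adjusted p = 0.00168). Trap1, the HSP90 of the matrix, and Xpnpep3, an aminopeptidase that trims imported proteins, rose by 0.14 and 0.29 on the log2 scale (edgeR adjusted p = 0.0284 and 0.00266). Htra2, a protease of the intermembrane space, fell by 0.21 on the log2 scale (edgeR adjusted p = 0.0297). March5, a ubiquitin ligase of the outer membrane that acts on fission and fusion factors, rose (log2 fold change 0.20, edgeR adjusted p = 0.00433). Trak1 and Rhot2, which couple mitochondria to motor proteins, fell by 0.22 and 0.29 on the log2 scale (edgeR adjusted p = 0.00445 and 0.039), though the Rhot2 groups overlapped. Chchd10, an intermembrane space protein, rose by 1.45 on the log2 scale from a mean of only 0.451 CPM (edgeR adjusted p = 0.0219). Of the companion genes with a call, 7 lost it when single libraries were left out, with the highest edgeR adjusted p at 0.173 for Parl (without kaempferol replicate 1), 0.122 for Trap1 (without control replicate 1), 0.115 for Chchd10 (without control replicate 2), 0.154 for Htra2 and 0.148 for Rhot2 (both without kaempferol replicate 3), and 0.0695 for Bcl2l13 and 0.125 for Usp15 (both without kaempferol replicate 1). With DESeq2 the calls of Trap1, Chchd10 and Rhot2 were lost (adjusted p = 0.0562, 0.0642 and 0.0911), with upper-quartile scaling those of Htra2, Rhot2 and Usp15 (edgeR adjusted p = 0.0579, 0.062 and 0.0565), and with no filter that of Trap1 (edgeR adjusted p = 0.0764).

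The list of the mitochondrial stress response showed 2 rises and no fall among 8 genes, a share near the 24% called over all tested genes. Among genes at or above the level of the lowest tested member 31.2% were called. Cebpb, a transcription factor, was at 58.8, 61.3 and 60.2 CPM in control and 102, 100 and 93.8 CPM in kaempferol (log2 fold change 0.71, edgeR adjusted p = 1.58e-08), and Trib3, a pseudokinase induced by ATF4 and CHOP, rose by 0.52 on the log2 scale (edgeR adjusted p = 0.000837). The other transcription factor genes of the list, Atf4, Atf5 and Ddit3 (which encodes CHOP), were not called. Their log2 fold changes were -0.04, -0.05 and -0.09 (edgeR adjusted p = 0.595, 0.484 and 0.483). These are RNA levels, and the activity of the factors was not measured. Usual target genes of the mitochondrial stress response within the set, Hspd1, Hspe1, Hspa9, Lonp1, Clpp and Yme1l1, had the values given above. They ran from -0.04 to 0.07 on the log2 scale.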

How the data were processed

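mRNA of 6 libraries, 3 control and 3 kaempferol, was analysed from 1 table of raw read counts per gene that the authors deposited. According to the submitters' processing notes, reads were cleaned with fastp, aligned to mm10 with HISAT2 2.0.5 and counted with featureCounts 1.5.0-p3, and StringTie 1.3.3b and DESeq2 1.20.0 are also named. The strand setting and the treatment of reads that map to several places are not given in the sources used here. 27 gene names had been turned into dates and were read by identifier, and 1 line of the table was empty.

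Low genes were removed with filterByExpr (at least 10 counts in enough libraries and 15 in all). TMM factors, which lay between 0.985 and 1.012, scaled the libraries, and CPM values use them. Groups were compared with edgeR 4.0.16 (quasi-likelihood test, R 4.3.3), adjusted over all tested genes. Members and lists, including the other mitochondrial genes and the markers, were chosen with earlier results of these data known. Given in full are called members with groups apart, the HSP60, HSP10 and HSP70 genes, the fusion genes and the mitophagy genes, and, of the other mitochondrial genes, the 5 largest rises and 5 largest falls with at least 5 CPM and groups apart. Mff, Calcoco1, Xpnpep3, Parl, March5, Trap1, Chchd10, Rhot2, Atf4, Atf5, Ddit3, the other uncalled members given by library and the marker genes named were chosen after their values were seen. Near-identical copies were searched with blastn 2.17.0 (at least 95% identity over 100 bases and 50% of the shorter transcript). The test was checked on simulated counts. As alternatives, DESeq2 1.42.0 replaced edgeR, RLE or upper-quartile scaling replaced TMM, the filter was dropped or raised to 10 counts in all libraries, only protein-coding genes were used, copies were added, calls were limited to adjusted p-values under 0.01 or to 1.2-fold changes, replicate numbers entered as a block, and single libraries were left out. Offsets by gene length were added after the data were seen.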

Additional observations from a re-analysis of the deposited data

How the results depend on the processing

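Pink1, Tomm20 and Tomm70a kept their call in every alternative fit, Timm23, Tomm5 and Fundc1 did not, and no called member changed direction. With 5 members higher and 1 lower in the reported analysis, 3 were higher with DESeq2, 3 with the replicate number as a block and 3 at an adjusted p under 0.01, where none (0) was lower, and 1 was higher and 0 lower at a fold change of at least 1.2. Offsets by gene length, added after the data were seen, gave 2 lower members, Mfn2 being the second, and 5 higher members, with Mff gained and Fundc1 lost. Leaving out single libraries gave 3 to 4 higher members and 0 to 1 lower, 8 to 14 higher and 4 lower companion genes, and 1209 to 1546 higher and 1210 to 1628 lower among all genes (1423 and 1628 without control replicate 3). At an adjusted p under 0.01, 953 of all genes were higher and 1026 lower, and 953 were lower at a fold change of at least 1.2. The 6 lower companion genes became 3 with upper-quartile scaling, 2 at an adjusted p under 0.01 and 2 at a fold change of at least 1.2. The median log2 fold change of the members, 0.001, was 0.029 with upper-quartile scaling, which moved the median of all genes to 0.027 and the share of calls that are higher from 47.2% to 58%, and was -0.033 to 0.034 without single libraries. Members called in neither setting changed sign 40 times, all counted over members and settings.

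Samples with the same replicate number did not deviate together (correlations -0.025, -0.061 and -0.045), so the replicate block, which gave 3 higher members and 1 lower, rests on a number alone. It ended the calls of Fundc1 and Tomm5 (edgeR adjusted p = 0.0574 and 0.0503) and, among the companion genes, of Htra2, Trap1 and Rhot2 (0.0547, 0.0871 and 0.0706). With 3 libraries per group, the median half-width of a member's 95% interval was 0.123 on the log2 scale, which corresponds to an unadjusted p of 0.05. A call at an adjusted p under 0.05 needs a larger change, and Mief2 at 0.20 was not called.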

Other observations

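Short and long members deviated differently from their group means in control replicates 2 and 3 and, less so, in kaempferol replicate 3. In control replicate 2 the 18 tested members of at least 1000 and under 3000 bases had a median deviation of -0.058 (log2 scale). The 25 members of 3000 bases or more had 0.005 there. In control and kaempferol replicate 3 the shorter class had 0.059 and -0.063, and the longer class had -0.007 and -0.034. Both classes were thus below 0 in kaempferol replicate 3. Over all tested genes of the shorter class the medians in control and kaempferol replicate 3 were 0.034 and -0.035, and of the longer class -0.011 and 0.017. Tomm7, of 1125 bases, had the deviations 0.233 and -0.392 in control and kaempferol replicate 3, and Tomm5, of 868 bases, had 0.202 and -0.043. With offsets by gene length the calls of Tomm5, Pink1, Tomm20, Tomm70a and Timm23 were kept, that of Fundc1 was lost, and Mff and Mfn2 were called (log2 fold changes 0.16 and -0.13, edgeR adjusted p = 0.0239 and 0.0384).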
